A study of Mus musculus with 88 samples.

Results

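The genes of the major histocompatibility complex (MHC, named H2 in the mouse) and of the machinery that loads peptides onto MHC molecules were followed in 3 brain regions of 2 inbred mouse strains. Members were all genes whose GRCm38 symbol starts with H2-, together with B2m, Tap1, Tap2, Tapbp, Tapbpl, Psmb8, Psmb9, Psmb10, Nlrc5, Ciita, Cd74, Erap1, Calr, Canx and Pdia3. This gave 60 of 48811 genes, of which 50 lie on chromosome 17 between positions 33915899 and 37483552 (GRCm38). They comprised 2 class Ia heavy chains, 30 class Ib genes, the light chain B2m and 13 class II genes. There were also 8 loading factors, 3 immunoproteasome subunits and 2 transactivators. H2-Ke6 matched by its name, although it is not known as an antigen presentation gene. Class Ib here takes in all other class I entries, including annotated pseudogenes such as H2-K2 and H2-M6-ps and the polymorphic pseudogene H2-T10. The class II genes include the pseudogenes H2-Pa and H2-Pb.

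Total RNA depleted of ribosomal RNA was sequenced from the medial prefrontal cortex (mPFC, 32 libraries), the bed nucleus of the stria terminalis (BNST, 28 libraries) and the ventral hippocampus (vHPC, 28 libraries), each library from a single male mouse. C57BL/6Crl (B6) and DBA/2Crl (D2) mice were either undefeated controls or went through chronic social defeat stress (CSDS), daily attacks by an aggressive male, and defeated mice were then classed as resilient or susceptible in a social interaction test. The mice were 5 weeks old when obtained and rested for 10 days before the first defeat. Tissue was taken 6 to 8 days after the last defeat, at 8 weeks of age, from mice kept singly since the end of CSDS. Every B6 group of the mPFC had 6 mice, and D2 had 6 controls with 8 susceptible mice. In the BNST each group had 5 mice apart from the resilient D2 group of 3, and in the vHPC B6 had 6 controls, 8 resilient and 3 susceptible mice, with 6 controls and 5 susceptible mice of D2. Only 7 mice were sampled in both the mPFC and the vHPC, and no litter or cage was given, so p-values measure the spread between these mice. In the mPFC and vHPC it is the spread left after the authors removed library preparation sets. The main fits made no allowance for that step, so p-values there may be too small.

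MHC class I molecules, a heavy chain paired with B2m, show peptides from inside the cell to CD8 T cells. The peptides are cut by the proteasome, whose immunoproteasome form holds Psmb8, Psmb9 and Psmb10, carried into the endoplasmic reticulum by Tap1 and Tap2, trimmed by Erap1 and loaded with the help of Tapbp, Calr and Pdia3. Class II molecules show peptides from the endosome to CD4 T cells and are made chiefly by professional antigen-presenting cells, while in brain tissue class I is low in neurons and both classes are found in microglia, vessels and border cells. Nlrc5 and Ciita are the master transactivators of class I and class II genes. B6 carries the b haplotype of H2 and D2 the d haplotype, and the reads of both strains were aligned to the B6 reference, so a strain difference in this interval can include reads lost or moved by sequence differences, and these cannot be told apart from differences in transcript amount in the files used here.

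Class I heavy chain genes are close copies of each other, and for this reason a stretch of exon 4 is shown, which encodes the part of the molecule near B2m. The runs are 96 bases long, the read length of the mPFC and BNST, from GENCODE M21 on GRCm38. Capitals mark bases that differ from H2-K1, at the coordinates chr17:33997403-33997498 (minus strand) for H2-K1, chr17:35265846-35265941 (plus) for H2-D1, chr17:35427926-35428021 (plus) for H2-Q6, chr17:35473145-35473240 (plus) for H2-Q10, chr17:36040596-36040691 (minus) for H2-T22, chr17:36030940-36031035 (minus) for H2-T23 and chr17:36014918-36015013 (minus) for H2-T24. Chosen for being alike, they are not typical of the whole genes.
H2-K1: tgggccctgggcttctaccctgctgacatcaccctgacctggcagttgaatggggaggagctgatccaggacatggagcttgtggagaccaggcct
H2-D1: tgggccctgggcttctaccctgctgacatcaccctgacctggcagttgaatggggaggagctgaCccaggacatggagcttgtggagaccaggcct
H2-Q6: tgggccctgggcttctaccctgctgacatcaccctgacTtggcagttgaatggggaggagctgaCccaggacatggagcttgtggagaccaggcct
H2-Q10: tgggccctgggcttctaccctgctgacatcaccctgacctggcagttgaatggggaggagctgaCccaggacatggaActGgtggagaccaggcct
H2-T22: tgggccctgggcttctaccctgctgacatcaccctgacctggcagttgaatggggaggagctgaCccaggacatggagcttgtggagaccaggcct
H2-T23: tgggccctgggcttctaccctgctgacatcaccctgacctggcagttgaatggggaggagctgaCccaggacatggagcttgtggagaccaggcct
H2-T24: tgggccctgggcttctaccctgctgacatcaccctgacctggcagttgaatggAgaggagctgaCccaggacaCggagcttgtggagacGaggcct

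Over their whole exons, the share of 96-base windows found in another gene of the reference was 1.17% for H2-K1, 3.78% for H2-D1, 8.71% for H2-Q10, 14.2% for H2-Q6 and 32.5% for H2-T22, and 0 for H2-T24, B2m, Cd74, H2-Aa, H2-Ab1 and H2-Eb1. H2-T10 shared 29.0% of its windows, H2-Ke6 62.1% and H2-DMb1 12.1%, in the last case with H2-DMb2. How many reads of D2 mice fit the B6 letters was not tested.

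Tissue markers varied within the BNST libraries, where the forebrain projection neuron gene Slc17a7 ran from −3.11 to 9.01 log2 CPM (reads scaled to a common library total), against 7.31 to 8.04 in the mPFC and 9.06 to 9.57 in the vHPC. The 7 B and T lymphocyte markers summed to 0.296 to 2.07 CPM in the BNST, and none of them had a row in the mPFC and vHPC tables, which hold genes of at least 1 CPM in at least 6 samples. In bulk tissue, fewer cells of a type and less RNA per cell cannot be told apart. Library totals in the BNST ran from 11825757 to 25793910 counts, and the depth behind the mPFC and vHPC values was not analysed here.

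The 3 most abundant members per kilobase of exon in each region were Calr and Canx, chaperones of the endoplasmic reticulum, and B2m. On the scale of log2 CPM per kilobase, averaged over groups, Canx stood at 6.89 (mPFC), 5.57 (BNST) and 6.44 (vHPC), and B2m at 5.28, 6.07 and 4.99. H2-D1, below Pdia3 and Psmb10 in each region, stood at 2.94, 1.74 and 2.76 in the same order. The library kits differed between regions, so these levels are given side by side and were not tested. In the mPFC and vHPC, 31 members had a row in both tables and 23 in neither. Of the 60 members in the BNST table, 26 passed a filter of at least 1 CPM in at least 6 libraries, 5 had no read and 29 had some reads. In the mPFC and vHPC, H2-Q2, H2-Q6 and H2-Q10 lay higher in D2 mice and may have passed the filters through them. In the BNST this applies to H2-Q6 alone, since H2-Q2 and H2-Q10 did not pass the filter. H2-Q2 had 98 reads in B6 and 55 in D2 libraries of the BNST. The counts of members below are therefore given beside the share of all genes and not as support.

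In the mPFC, class I genes differed between strains, and no member passed between defeated and control mice. D2 controls had lower H2-T22, H2-T23, H2-K1, H2-K2, H2-M3 and B2m and higher H2-Q10, H2-Q2, H2-Q6, H2-M6-ps and H2-DMa than B6 controls, 11 of 33 members (5 higher, 6 lower), beside 27.8% of all 18946 genes (limma, adjusted p under 0.05 over all genes). In susceptible mice 10 members passed (5 higher, 5 lower), beside 17.5% of all genes. Of these, 8 passed in both pairs of groups, which share no mice, all in the same direction, 72.7% of the first list and 80.0% of the second.

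H2-T22, a class Ib gene whose product binds gamma delta T cell receptors, separated the strains fully. Its lowest, median and highest log2 CPM were 3.93, 4.06 and 4.16 in B6 controls, 3.94, 3.99 and 4.145 in resilient B6 mice, 3.75, 3.86 and 3.99 in susceptible B6 mice, 2.69, 2.802 and 2.97 in D2 controls and 2.70, 2.88 and 3.07 in susceptible D2 mice. No D2 mouse reached the lowest B6 mouse. The D2 minus B6 difference was −1.25 on the log2 scale in controls (SE 0.0606, limma adjusted p = 5.04e-16) and −0.98 in susceptible mice (SE 0.0567, adjusted p = 2.60e-14). H2-T23, which encodes Qa-1 and presents leader peptides of other class I chains, showed the same order, with 3.56, 3.66 and 3.82 in B6 controls and 2.68, 2.72 and 3.02 in D2 controls. That is a difference of −0.91 (SE 0.104, adjusted p = 6.40e-08), and it was −0.77 in susceptible mice (SE 0.0975, adjusted p = 3.55e-07).

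The classical chain H2-K1 was lower in D2 controls (2.71, 3.02 and 3.11) than in B6 controls (3.117, 3.45 and 3.95), by −0.54 (SE 0.120, limma adjusted p = 0.00104). Among susceptible mice the strains overlapped and the difference was −0.28 (SE 0.112, adjusted p = 0.0847). The other classical chain, H2-D1, had almost the same level in both strains, 4.32 ± 0.21 (SD, n = 6) in B6 controls and 4.32 ± 0.18 (SD, n = 6) in D2 controls. B2m was lower by −0.19 in D2 controls (SE 0.0687, adjusted p = 0.0381) and −0.20 in susceptible D2 mice (SE 0.0643, adjusted p = 0.0252), with overlapping groups.

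H2-Q10, which in the liver makes a secreted class I chain, was near the floor in B6 mice, where voom's offset sets values for few or no reads. Controls of B6 ran from −5.35 to −3.53 log2 CPM and D2 controls from 0.45 to 1.08, a fitted difference of 5.37 (SE 0.465, limma adjusted p = 2.15e-10) that is no bound on the fold. In susceptible mice it was 4.23 (SE 0.435, adjusted p = 7.48e-09). H2-Q2 was higher in D2 mice by 2.153 and 3.198 and H2-Q6 by 1.301 and 1.684 in controls and susceptible mice, all past the threshold and without overlap of the strains. Of the class II genes, H2-DMa, whose product edits class II peptides, was higher in D2 controls by 0.32 (SE 0.0903, adjusted p = 0.00777), and H2-Eb1 was lower in susceptible D2 mice by −1.23 (SE 0.283, adjusted p = 0.00176). None of the 8 loading genes, 3 immunoproteasome subunits or Nlrc5 passed in either comparison.

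**Figure D1:**
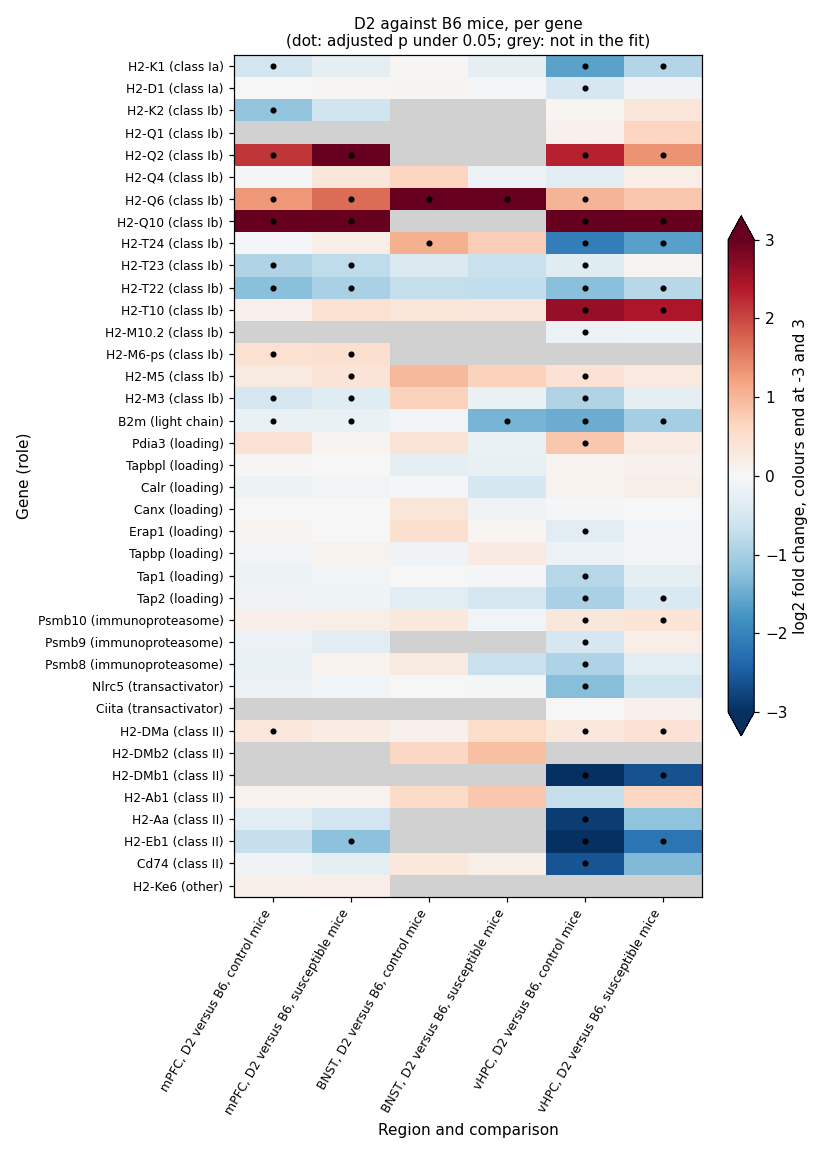
Difference between D2 and B6 mice (log2 fold change, colour) for each gene in the controls and the susceptible mice of each region, with a dot where the adjusted p was under 0.05 and grey where the gene was not in the fit. H2-T22 lies below 0 and H2-Q6 above 0 in every column, and dots are most frequent in the vHPC (26 and 12).

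**Figure D2:**
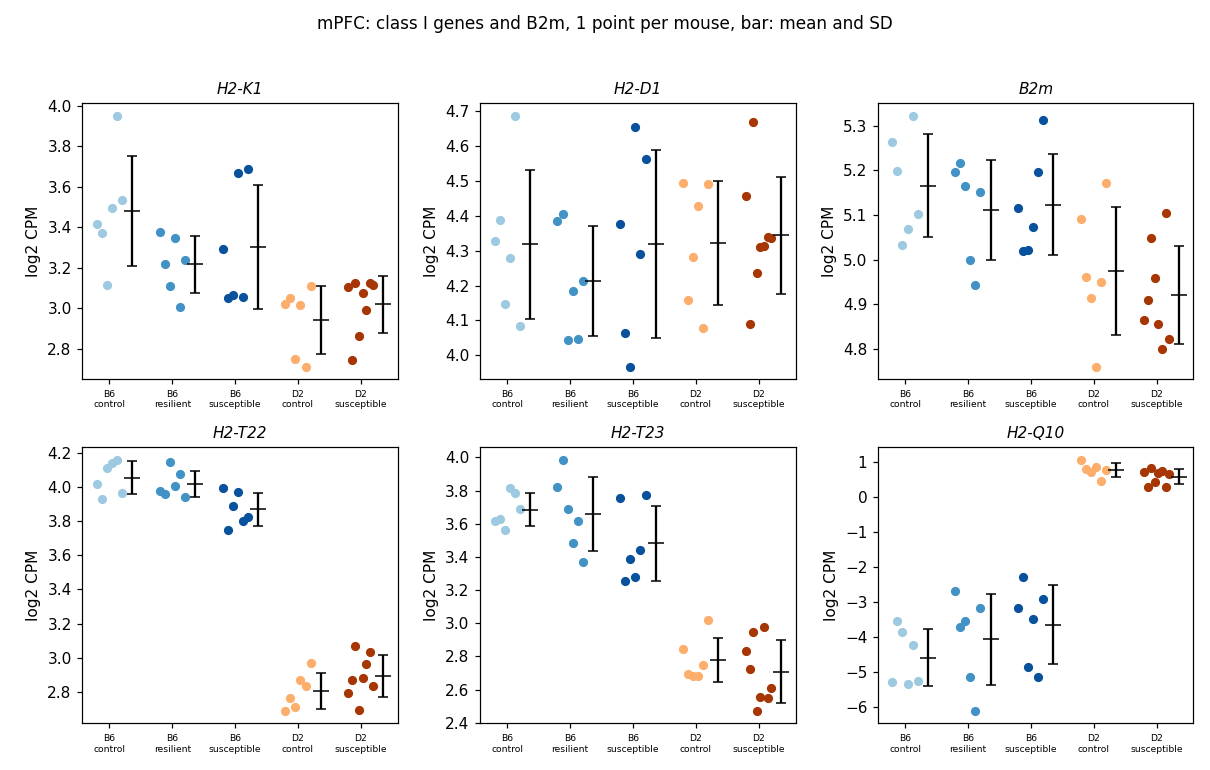
Log2 CPM of 5 class I heavy chain genes and B2m in the mPFC, 1 point per mouse, with mean and SD as bars. H2-T22, H2-T23 and H2-Q10 separate the strains, with H2-T22 from 3.75 to 4.16 in B6 mice and from 2.69 to 3.07 in D2 mice, while H2-D1 overlaps fully.

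Defeat did not move any member past the threshold in the mPFC. With limma, 0 of 33 members passed between resilient and control B6 mice (0% of all genes; 3 members at an unadjusted p under 0.05), between susceptible and control B6 mice (2.22% of all genes; 3 members), between susceptible and resilient B6 mice (2.02%; 5 members) and between susceptible and control D2 mice (0%; 1 member). The strain by susceptibility interaction passed for 0 members (0% of all genes; 2 members at an unadjusted p under 0.05). Only the tables of the BNST hold counts, so no second tool was run in the mPFC. The lowest adjusted p of a B6 stress comparison in the mPFC was that of H2-T22 in susceptible mice, −0.18 (SE 0.0606, limma adjusted p = 0.0953).

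In the BNST, B2m differed between the susceptible mice of the strains and did not pass between their controls, and 2 class Ib genes differed between controls. D2 controls had higher H2-Q6 and H2-T24 than B6 controls, 2 of 26 members, beside 2.51% of all 17515 genes (edgeR quasi-likelihood test). Susceptible D2 mice had higher H2-Q6 and lower B2m, also 2 members, beside 5.18% of all genes. DESeq2 called the same number in each.

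B2m was at 5.56, 5.602, 6.02, 6.11 and 5.88 log2 CPM in the 5 B6 controls and at 6.67, 6.68, 5.97, 6.72 and 7.05 in the susceptible B6 mice. In D2 it was at 5.81, 6.05, 5.56, 6.09 and 5.187 in controls and at 5.55, 5.25, 5.22, 4.96 and 5.23 in susceptible mice. Each susceptible B6 mouse was above each susceptible D2 mouse, while the controls overlapped. The strain difference was −0.075 in controls (SE 0.206, edgeR adjusted p = 0.901) and −1.41 in susceptible mice (SE 0.209, adjusted p = 5.74e-05). Against controls of the same strain, B2m differed by 0.81 in susceptible B6 mice (SE 0.206, adjusted p = 0.559, unadjusted p = 0.000542 in edgeR's fit) and by −0.52 in susceptible D2 mice (SE 0.206, adjusted p = 0.678), and neither passed. The test of the difference itself, the interaction, gave −1.33 (SE 0.292, edgeR adjusted p = 0.0708), and DESeq2 gave −1.35 (adjusted p = 0.00440). TMM factors ran from 1.118 to 1.273 in susceptible D2 and from 0.656 to 0.970 in susceptible B6 mice. Without them the interaction was −0.79 (edgeR adjusted p = 0.0707), the strain difference in susceptible mice −0.96 (adjusted p = 0.00249) and the difference between susceptible and control D2 mice −0.18.

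Of the 5 susceptible D2 libraries 4 were sequenced in 1 set each, while every other BNST library was sequenced in 2, so the group and the sequencing set overlap. The susceptible D2 mouse sequenced in 2 sets stood at 5.22, within the range of the other 4. With libraries of 2 sets alone, which leaves this 1 susceptible D2 mouse and assumes that it varies like the other groups, the strain difference of B2m was −1.44 (SE 0.422, edgeR adjusted p = 0.323) and did not pass.

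Beside B2m, some microglial markers also moved in the BNST, where 5.18% of all genes passed between the susceptible mice of the strains. In susceptible D2 against susceptible B6 mice 2 of the 9 fell (Itgam and C1qa, median of the list −0.45), and their summed level was 205 to 326 CPM in the D2 mice and 294 to 370 in the B6 mice. The part of these markers in the B2m result was not tested. The class I heavy chains together had a summed level of 42.6 ± 9.19 CPM (SD, n = 5) in susceptible B6 mice and 37.3 ± 5.42 (SD, n = 5) in B6 controls.

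H2-Q6 was at −4.97, −2.11, −3.38, −2.46 and −1.58 log2 CPM in B6 controls and at 0.38, −1.45, 0.34, 1.40 and 0.22 in D2 controls, so the D2 values lay above all those of B6. The value −4.97 stands for a library with no read, and the fitted differences of 3.117 in controls (SE 0.746, edgeR adjusted p = 0.0159) and 3.09 in susceptible mice (SE 0.764, adjusted p = 0.0148) depend on the prior count. H2-T24 was at 0.76, 0.37, 1.10, 1.04 and 1.26 in B6 controls and 1.94, 1.44, 2.33, 2.26 and 1.82 in D2 controls, without overlap, a difference of 1.07 (SE 0.279, adjusted p = 0.0336). In the mPFC it differed by −0.06 in controls (SE 0.118, limma adjusted p = 0.734), and in the vHPC it was lower in D2 mice. The difference between regions was not tested.

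H2-Ea-ps is the annotated entry of the class II alpha chain that mice of the b haplotype are known not to express. It had 0 reads in all 15 B6 libraries and 15 reads in 9 of 13 D2 libraries. Against a floor of 3 counts over the B6 group, the D2 level was 5.87-fold higher, an estimate that allows for no error in the 15 reads. H2-M10.2 had 5 reads in B6 and 1 in D2 libraries. Neither passed the filter.

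**Figure D3:**
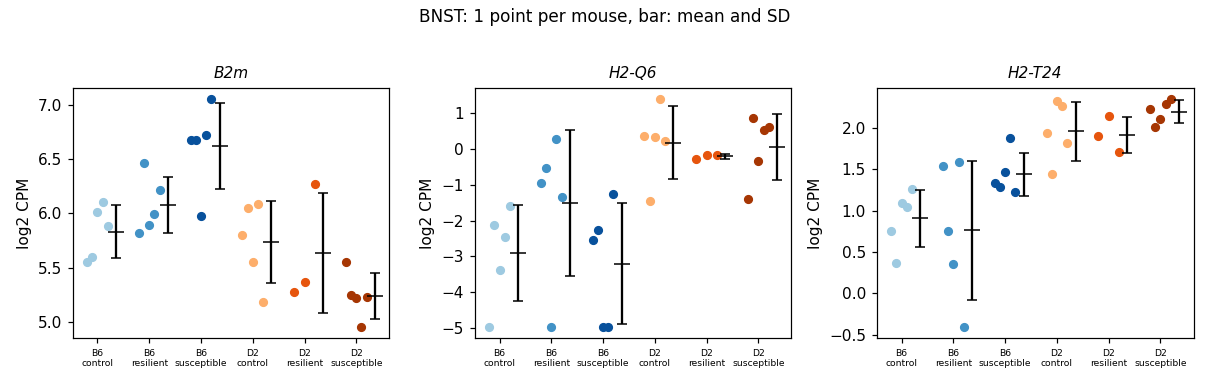
Log2 CPM (TMM scaled) of B2m, H2-Q6 and H2-T24 in the BNST, 1 point per mouse, with mean and SD as bars. For B2m the susceptible B6 mice lie at 5.97 to 7.05 and the susceptible D2 mice at 4.96 to 5.55, and points at −4.97 for H2-Q6 are libraries without a read.

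Among the BNST stress comparisons, edgeR called 0 of 26 members between resilient and control B6 mice (0% of all genes; 2 members at an unadjusted p under 0.05), susceptible and control B6 mice (0%; 2 members), susceptible and resilient B6 mice (0.00571%; 2 members), susceptible and control D2 mice (0%; 2 members) and resilient and control D2 mice (0%; 1 member). The interaction passed for 0 members in edgeR (0%; 2 members at an unadjusted p under 0.05). DESeq2 called 0 members in the 5 stress comparisons and 1, B2m, in the interaction, where it called 223 of all 17515 genes.

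In the vHPC, both class Ia chains, B2m and 4 of 6 class II genes were lower in D2 than in B6 controls, while class Ib genes went both ways (5 higher and 5 lower of 13). Group and library preparation set overlapped. B6 controls shared no set with defeated B6 mice or with D2 controls, so defeat and set cannot be told apart in B6. Of the B6 controls, mouse 2 alone shared a set with another group, the susceptible D2 mice of set 5. With the set as a covariate, every comparison with B6 controls therefore rests on that mouse and on a link through susceptible D2 mice. The values had been adjusted for sets by the authors before deposit. With the set as a covariate, no member passed in any of the 4 stress comparisons. The median SE of the members was then 3.72, 2.69, 1.39 and 2.28 times as large in resilient against control B6, susceptible against control B6, susceptible against resilient B6 and susceptible against control D2 mice. Sequencing set overlapped with group as well. All B6 controls and most D2 controls came from the same sequencing set, and most resilient B6 and most susceptible D2 mice from the other.

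Between controls, 26 of 35 members passed (8 higher and 18 lower in D2), beside 59.3% of all 19559 genes, and between susceptible mice 12 (5 higher, 7 lower), beside 32.7%. All 12 had also passed in the controls, in the same direction, 46.2% of the first list and 100% of the second. For controls, the fit with library set as a covariate rests on B6 control mouse 2, so it is no check on the whole group. With library set as a covariate, 9 of the first and 4 of the second remained.

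H2-K1 separated the strains within controls and within susceptible mice. It ran at 4.89, 5.05 and 5.23 log2 CPM (lowest, median and highest) in B6 controls and at 3.26, 3.35 and 3.83 in D2 controls, a difference of −1.62 (SE 0.136, limma adjusted p = 1.60e-10) and −2.39 with the set as a covariate. Susceptible mice stood at 3.76, 4.11 and 4.187 in B6 and at 2.89, 3.22, 2.84, 3.304 and 3.499 in D2, a difference of −0.87 (SE 0.172, adjusted p = 0.000326) that did not pass with the set as a covariate (−0.39, adjusted p = 0.605). B2m moved with it, at 5.34, 5.81 and 6.05 in B6 controls and 4.06, 4.14 and 4.63 in D2 controls (−1.48, SE 0.163, adjusted p = 2.27e-08).

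Of the sets that held both strains (5 sets, mixing control and defeated mice), D2 mice were lower in 5 of 5 for B2m, Cd74, H2-DMb1, H2-Eb1, H2-K1, H2-T22, H2-T24 and Nlrc5, and higher in 5 of 5 for H2-Q10, H2-T10 and H2-DMa. The share of all genes with the same sign in 5 of 5 sets was not counted, so these lists are a description. Between controls, 59.3% of all genes passed. The median D2 minus B6 difference within sets was −1.06 for B2m and −1.07 for H2-K1. H2-T24 among controls stood at 4.82, 4.99 and 5.10 in B6 and 2.66, 2.86 and 3.26 in D2 (−2.07, SE 0.0932, adjusted p = 5.30e-16). H2-T10 went the other way, from −1.66 in the median B6 control to 0.86 in the median D2 control (2.62, SE 0.190, adjusted p = 9.29e-12), as did H2-Q10 (5.12, SE 0.338, adjusted p = 1.36e-12).

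Class II genes were among the largest differences. H2-Eb1, a class II beta chain, ran at 1.27, 1.57 and 2.43 log2 CPM in B6 controls and −3.34, −2.54 and −1.06 in D2 controls, without overlap, a difference of −4.05 (SE 0.363, limma adjusted p = 5.63e-10). H2-DMb1, which with H2-DMa forms the peptide editor, differed by −3.54 (SE 0.203, adjusted p = 8.14e-14), H2-Aa, a class II alpha chain, by −2.84 (SE 0.441, adjusted p = 5.22e-06) and the invariant chain Cd74 by −2.59 (SE 0.463, adjusted p = 3.51e-05). The beta chain H2-Ab1 did not pass (−0.69, SE 0.351, limma adjusted p = 0.0937). H2-DMa was higher in D2 by 0.32 (SE 0.0770, adjusted p = 0.000832). H2-DMb2, which shares windows with H2-DMb1, had no row in the vHPC. In the BNST, H2-DMb1 had 158 reads in B6 and 77 in D2 libraries, while H2-DMb2 had 142 and 274. With library set as a covariate, H2-Eb1 and H2-DMb1 passed, and H2-Aa, Cd74 and H2-DMa did not.

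Of 8 loading genes 3 were lower and 1 higher in D2 controls, and of 3 immunoproteasome subunits 2 were lower and 1 higher. Beside these counts, 59.3% of all genes passed. Tap1 and Tap2 differed by −0.85 and −0.98, Psmb8 and Psmb9 by −0.92 and −0.49 and the class I transactivator Nlrc5 by −1.27 (SE 0.197, limma adjusted p = 5.35e-06). The disulfide isomerase Pdia3 was higher in D2 by 0.81 (SE 0.174, adjusted p = 0.000317), and Psmb10 by 0.33. None of these passed with library set as a covariate (Tap1 −1.04, adjusted p = 0.150; Nlrc5 −1.62, adjusted p = 0.208). Tapbp, Tapbpl, Calr, Canx and Ciita did not pass in any vHPC comparison.

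Markers of several other cell types moved with the strain in the vHPC controls, most of them lower in D2 in at least part of the list. Of all genes, 59.3% passed in this comparison. All 5 choroid plexus markers fell (median −2.93; summed level 38.4 to 2108 CPM in B6 and 22.5 to 534 in D2 controls), all 6 endothelial markers fell (median −0.65; 301 to 333 against 212 to 226 CPM), and 7 of 9 microglial markers fell and 1 rose (median −0.25; 281 to 291 against 236 to 259 CPM). Of 4 border macrophage markers 2 fell, at 16.7 to 25.3 against 9.69 to 12.6 CPM. The 2 dendritic cell markers with a row went the other way in summed level, at 33.8 to 38.3 against 39.0 to 44.6 CPM. Meningeal fibroblast markers overlapped, at 147 to 221 against 155 to 207 CPM. The part of all these markers in the strain difference of the class II and class I genes was not tested.

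Susceptible B6 mice had lower levels of both class Ia chains, B2m and 5 of 6 class II genes than B6 controls, while of 13 class Ib genes 5 were lower and 3 higher. In resilient B6 mice 1 class Ia chain, B2m and 2 class II genes were lower, and of the class Ib genes 2 were lower and 2 higher. None of these calls passed with library set as a covariate. Between susceptible and control B6 mice, 23 of 35 members passed (4 higher, 19 lower), beside 40.6% of all genes, and between resilient and control mice 8 (2 higher, 6 lower), beside 10.84%. Both comparisons use the same 6 controls. Susceptible against resilient mice gave 14 (1 higher, 13 lower), beside 27.6%, a count that fell to 7 and 6 without the first or the second of the 3 susceptible mice.

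H2-K1 was lower by −0.44 in resilient mice (SE 0.127, limma adjusted p = 0.0235) and by −1.04 in susceptible mice (SE 0.166, adjusted p = 3.90e-05), and susceptible mice were lower than resilient mice by −0.60 (SE 0.159, adjusted p = 0.0109). Resilient mice ran from 4.399 to 5.31 with a median of 4.55, and the single mouse at 5.31 was above all controls. Tap1 stood at 2.15, 2.46 and 2.305 in susceptible B6 mice, below all 6 controls (2.90 to 3.49) and all 8 resilient mice (2.74 to 3.55), and differed from controls by −0.86 (SE 0.140, adjusted p = 4.78e-05). In resilient mice it differed by −0.21 (SE 0.107, adjusted p = 0.224). Psmb9 differed by −0.76 in susceptible mice (SE 0.193, adjusted p = 0.00316) and Nlrc5 by −1.02 (SE 0.241, adjusted p = 0.00186).

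H2-Eb1 was lower by −1.05 in resilient (SE 0.340, limma adjusted p = 0.0457) and −2.27 in susceptible B6 mice (SE 0.445, adjusted p = 0.000351). H2-Aa differed by −2.05 and H2-DMb1 by −1.99 in susceptible mice, while Cd74 differed by −1.52 (SE 0.567, adjusted p = 0.0351) with resilient mice spread from −0.04 to 3.22. Pdia3 was higher by 0.98 (SE 0.213, adjusted p = 0.000940), at 5.48, 5.98 and 5.42 in susceptible mice and 4.32 to 4.89 in controls, and H2-T10 by 0.83. H2-Q10 was fitted as higher by 1.52 in resilient and 2.02 in susceptible mice, at levels near the floor (−6.14 to −2.61), and its sign turned under quantile normalization.

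Markers of other cell types passed in this comparison as well, where 40.6% of all genes passed. In susceptible against control B6 mice, 4 of 6 endothelial markers fell (median −0.53; 237 to 264 CPM in susceptible mice), 5 of 9 microglial markers fell (254 to 266 CPM) and 1 of 5 choroid plexus markers fell (24.3 to 80.0 CPM). Of 4 border macrophage markers 2 fell, Mrc1 and F13a1, and their summed level was 11.5 to 15.1 CPM in susceptible mice and 16.7 to 25.3 in controls, without overlap. The 2 dendritic cell markers with a row were higher in summed level, 39.7 to 40.8 CPM in susceptible mice and 33.8 to 38.3 in controls. Meningeal fibroblast markers overlapped, at 144 to 166 and 147 to 221 CPM. The part of all these markers in the result was not tested.

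In D2 mice 3 of 35 members, H2-T24, H2-T22 and H2-DMb1, passed between susceptible and control mice, all lower, beside 4.28% of all genes. H2-T24 differed by −0.49 (SE 0.0977, limma adjusted p = 0.00291), H2-T22 by −0.31 (SE 0.0778, adjusted p = 0.0173) and H2-DMb1 by −1.07 (SE 0.213, adjusted p = 0.00275). The strain by susceptibility interaction passed for 0 members (0.782% of all genes; limma), with 15 members at an unadjusted p under 0.05, so the larger count in B6 was not shown to differ from that in D2.

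The group means formed an order in 13 of the 35 members, falling from B6 control through B6 resilient, B6 susceptible and D2 control to D2 susceptible: B2m, Cd74, H2-Aa, H2-D1, H2-DMb1, H2-Eb1, H2-K1, H2-M3, H2-T22, H2-T24, Nlrc5, Psmb8 and Tap2. Another 4 (H2-M5, H2-Q10, H2-Q2 and H2-Q6) rose in that order. Among all vHPC genes 19.0% fell and 15.9% rose in it, so these counts are a description, since group and library set overlap. In the mPFC 1 of 33 members fell in that order, H2-T23, beside 3.76% of all genes.

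**Figure D4:**
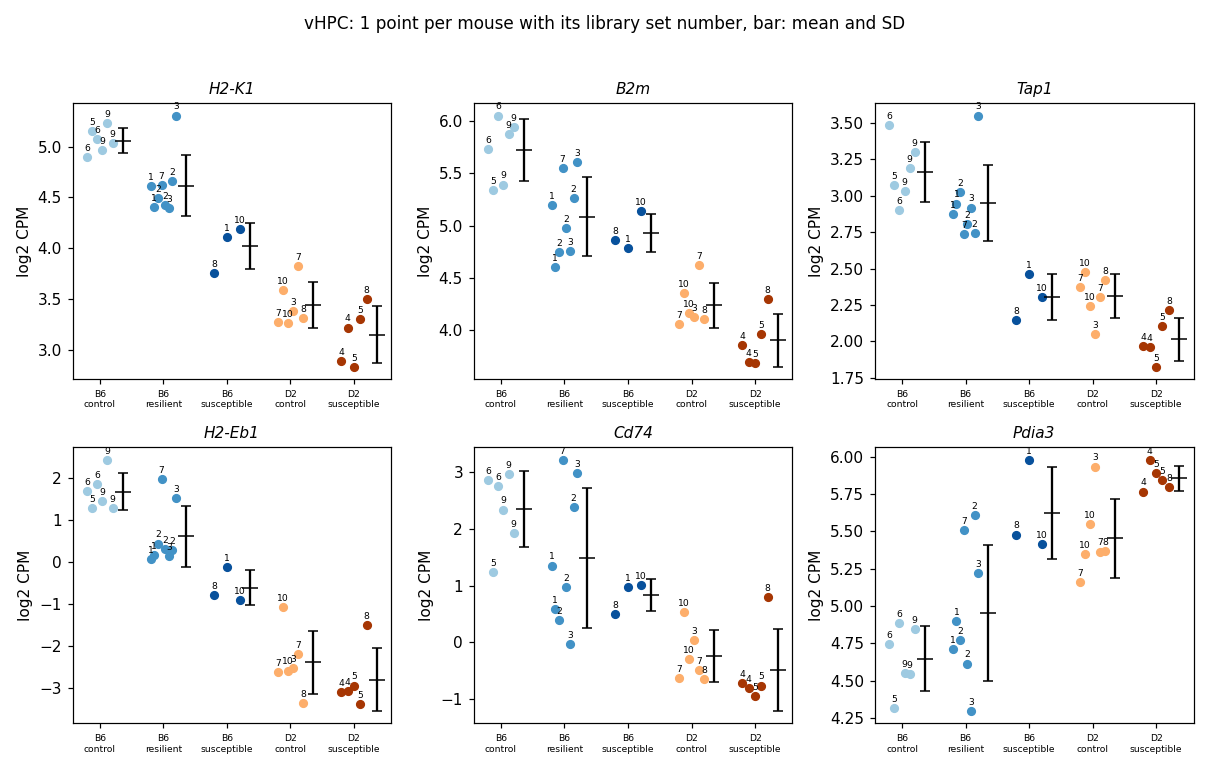
Log2 CPM of 6 genes in the vHPC, 1 point per mouse with the number of its library set, and mean and SD as bars. H2-K1, B2m and H2-Eb1 fall from B6 controls to D2 mice, Pdia3 is higher in the susceptible B6 mice (5.42 to 5.98) than in B6 controls (4.32 to 4.89), and no set number is shared by B6 controls and defeated B6 mice.

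**Figure D5:**
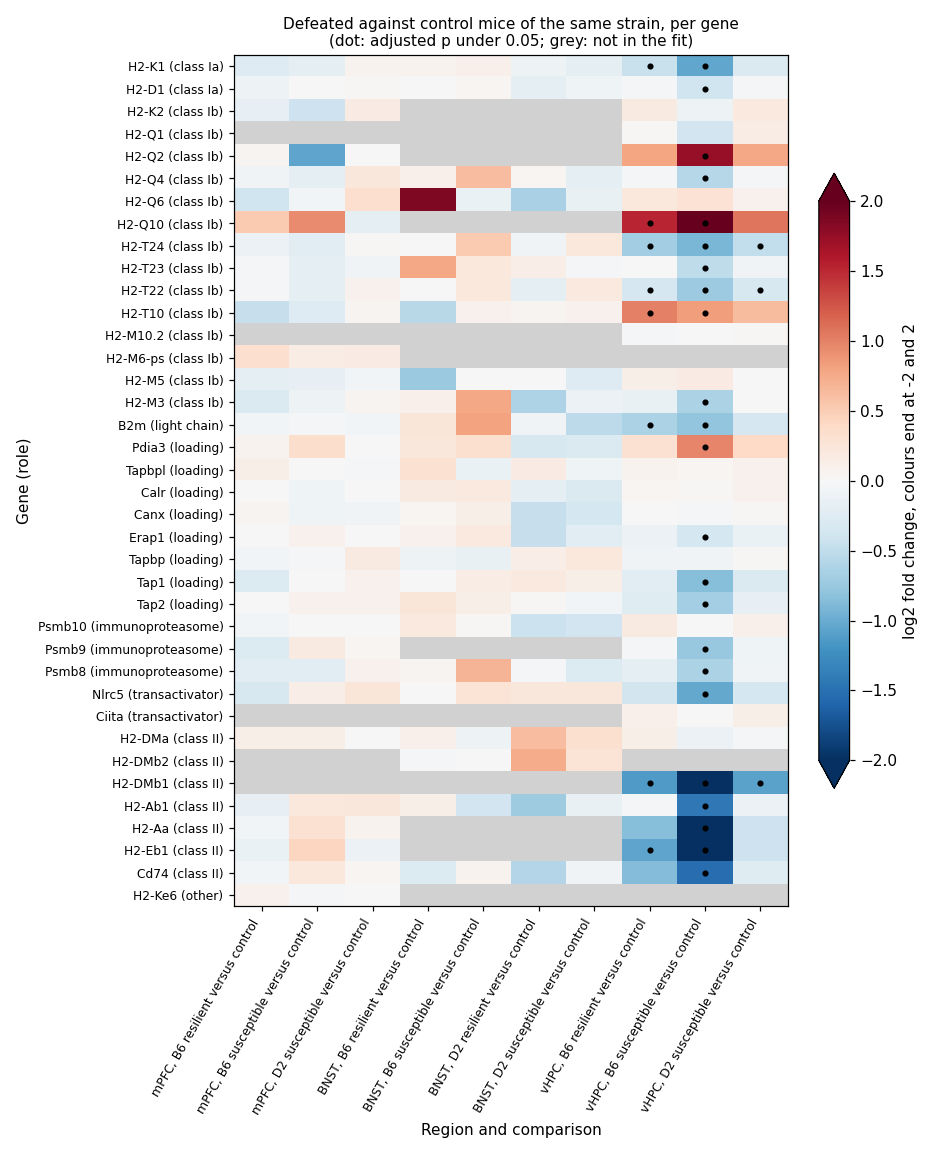
Difference between defeated and control mice of the same strain (log2 fold change, colour) for each gene in each region, with a dot where the adjusted p was under 0.05 and grey where the gene was not in the fit. Dots appear in the vHPC alone, 8 in resilient B6, 23 in susceptible B6 and 3 in susceptible D2 mice.

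Promoters of some members lower in D2 controls in the vHPC are shown over the 250 bases before the start of transcription. They come from RefSeq on GRCm38.p6 and do not represent all members that were lower. The motifs in capitals were chosen after the sequences had been read. The Y box, CTGATTGG on either strand, is bound by NF-Y in class II and class I promoters, and the interferon-stimulated response element core is TTTCNNTTC. The coordinates are chr17:35262844-35263093 (plus strand) for H2-D1, chr17:34287824-34288073 (minus) for H2-Aa, chr17:34305617-34305866 (plus) for H2-Eb1, chr17:34187331-34187580 (minus) for Psmb9 and chr17:35469839-35470088 (plus) for H2-Q10, which was higher in D2.
H2-D1: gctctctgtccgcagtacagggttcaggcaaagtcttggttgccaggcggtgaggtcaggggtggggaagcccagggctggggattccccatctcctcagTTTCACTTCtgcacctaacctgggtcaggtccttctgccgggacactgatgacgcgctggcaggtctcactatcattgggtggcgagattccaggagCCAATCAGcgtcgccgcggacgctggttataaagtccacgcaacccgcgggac
H2-Aa: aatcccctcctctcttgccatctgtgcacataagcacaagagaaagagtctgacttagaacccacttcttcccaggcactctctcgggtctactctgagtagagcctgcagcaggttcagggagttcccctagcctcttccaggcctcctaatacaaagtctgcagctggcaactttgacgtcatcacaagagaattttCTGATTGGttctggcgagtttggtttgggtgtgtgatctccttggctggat
H2-Eb1: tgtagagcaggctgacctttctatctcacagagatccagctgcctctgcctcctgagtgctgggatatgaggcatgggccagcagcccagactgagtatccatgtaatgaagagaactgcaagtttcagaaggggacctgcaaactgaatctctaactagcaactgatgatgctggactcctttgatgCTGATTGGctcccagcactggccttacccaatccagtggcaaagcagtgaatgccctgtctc
Psmb9: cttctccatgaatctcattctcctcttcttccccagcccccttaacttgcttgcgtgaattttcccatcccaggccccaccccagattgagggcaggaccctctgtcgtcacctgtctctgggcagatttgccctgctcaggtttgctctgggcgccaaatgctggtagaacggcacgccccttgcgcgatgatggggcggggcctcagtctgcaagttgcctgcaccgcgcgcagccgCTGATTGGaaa
H2-Q10: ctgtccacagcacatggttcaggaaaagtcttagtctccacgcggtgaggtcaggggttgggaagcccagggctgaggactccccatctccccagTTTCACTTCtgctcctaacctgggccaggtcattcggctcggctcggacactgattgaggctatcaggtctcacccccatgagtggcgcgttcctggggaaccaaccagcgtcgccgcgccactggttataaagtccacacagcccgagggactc

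Of 42 members with a promoter in the table, 20 held the Y box, against 3.82% of all 32817 promoters, and 8 held the response element core, against 6.31%. H2-Q10 held the core and not the Y box. B2m, H2-K1, H2-DMb1, H2-T22 and Psmb8, also lower in D2 controls in the vHPC, held no Y box. H2-Q6, which rose in the order of vHPC group means, held it. A match to these letters is a description of this window, and no binding was measured.

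Genes next to the members on chromosome 17 were counted beside all genes. In the mPFC controls 29 of the 95 tested neighbours (30.5%) passed, beside 27.8% of all genes and 41.7% of the members of that interval. In the BNST controls it was 3.23% of neighbours, beside 2.51% of all genes and 11.8% of members, and in the vHPC controls 62.4%, beside 59.3% and 80.0%. No test of the difference between members and neighbours was made.

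Genes of the same pathways outside the list differed between strains as well. Among class I-like genes elsewhere in the genome, 3 of 5 tested were lower in D2 controls in the mPFC, where 27.8% of all genes passed, and 4 of 4 in the vHPC, where 59.3% passed, among them Mr1, which presents vitamin metabolites, by −0.54 (SE 0.0993) and −1.36 (SE 0.122), and the iron regulator Hfe by −0.72 (SE 0.117) and −1.93 (SE 0.145). Psmb5, the constitutive counterpart of Psmb8, was lower in the same 2 comparisons by −0.53 and −1.17. Of 6 endosomal proteases and reductases, Ifi30, a lysosomal reductase that opens antigens for class II loading, was higher by 0.61 and 1.04, and the protease Ctsl was higher in the mPFC by 0.25 and lower in the vHPC by −0.43. Ctsb (−0.21), Ctsd (−0.18) and Lgmn (−0.10) were also lower in the vHPC. In the BNST, Ctss was higher in D2 controls by 0.58 (SE 0.155), where 2.51% of all genes passed. Of the interferon receptor chains, Ifnar1 was higher in D2 controls in the mPFC and the vHPC, by 0.19 and 0.18. Ifnar2 was lower in the vHPC, as was the receptor-bound kinase Jak1. Of the RFX and NF-Y factors, Nfya was higher in D2 controls by 0.31 (mPFC) and 0.42 (vHPC), and Rfxank lower by −0.19 in each. Nfyb (0.23) and Rfxap (0.31) were higher in the vHPC alone. In susceptible against control B6 mice of the vHPC, Nfya (0.43) and Rfxap (0.29) were higher, where 40.6% of all genes passed. Of the other listed genes, Hfe (−1.28), Mr1 (−0.92), Psmb5 (−0.67), Fcgrt (−0.65) and Ctsl (−0.46) were among those lower. Psme3 (0.50) was among those higher. Group and library set overlap in that comparison. Their part in the levels of the members was not tested.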

How the data were processed

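RNA was sequenced from 88 libraries. The authors trimmed reads, removed PCR duplicates, aligned them to GRCm38 with STAR and counted gene exons with HTSeq. The BNST table deposited by the authors holds raw counts. The 2 other tables, deposited as log2 CPM, had been filtered and voom-normalized by the authors, who then removed library preparation set (in the vHPC also sequencing set) with ComBat. Members and lists were chosen with earlier results of these data known. BNST counts were filtered (at least 1 CPM in at least 6 libraries), TMM scaled and fitted with edgeR 4.0.16 (quasi-likelihood). The other tables were fitted with limma 3.58.1 (robust eBayes) in R 4.3.3. All groups of a region shared a fit, and p-values were adjusted (Benjamini-Hochberg) over all genes, with a threshold of 0.05. DESeq2 1.42.0 was an alternative in the BNST, where per-mouse log2 CPM used a prior count of 0.5. Further alternatives were other filters and normalizations, a covariate for library set, for sequencing set or for the prefix of the mouse ID, only the groups compared, BNST libraries of 2 sequencing sets alone (added after seeing the data), and leaving out each mouse. Genes named were 18 core members, up to 8 of the largest called differences per comparison, and members seen in a single strain in the BNST. Other genes in the text come from lists or were named after their values were seen. The fits were tested on simulated data. No D2 haplotype sequence was used here. Results for 1 gene of the interferon response list are not reported here.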

Additional observations from a re-analysis of the deposited data

Results flagged for a closer look

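Single mice stood apart from the rest of their group in 19 of 237 groups tested, where chance flags about 1 in 20. Values are log2 CPM, with the nearest other mouse of the group in brackets. In the mPFC, Calr was high in susceptible D2 mouse 7 at 8.56 (8.35), Psmb8 in control D2 mouse 6 at 1.804 (1.42), and Cd74 in control D2 mouse 4 at 1.57 (0.50) and susceptible D2 mouse 7 at 1.59 (0.73). Cd74 was low in resilient B6 mouse 3 at −0.49 (0.64), and H2-Eb1 in control B6 mouse 6 at −0.37 (0.66). In the BNST, Canx was high in control D2 mouse 2 at 8.94 (7.99), where Tapbp was low at 2.97 (3.78). H2-D1 was low in susceptible B6 mouse 2 at 2.3001 (3.17), Pdia3 in susceptible B6 mouse 3 at 6.83 (7.20) and Psmb8 in control B6 mouse 1 at −0.83 (0.39).

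In the vHPC, susceptible D2 mouse 5 was high for 3 class II genes, Cd74 at 0.79 (−0.72), H2-Ab1 at 1.26 (0.32) and H2-Eb1 at −1.50 (−2.93). It was the only mouse of its group in its library set and in its sequencing set, so mouse and set cannot be told apart. Resilient B6 mouse 8 was high for 3 class I pathway genes, H2-K1 at 5.31 (4.66), Tap1 at 3.55 (3.03) and Psmb8 at 1.83 (1.28). Control D2 mouse 2 was high for Psmb9 at 0.65 (0.38) and Tapbp at 4.48 (4.26).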

How the results depend on the processing

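No paired analysis was possible because replicate numbers link no mice across groups. Library set, sequencing set and mouse ID prefix were fitted as covariates. Counts of members past the threshold moved by over 1.5 times as follows, and the cause was not tested. For strain in BNST controls the count was 1 without TMM (373 of all 17515 genes passed) and 1 without the filter (416 of 40096 genes). It was 0 with only the groups compared. For strain in susceptible BNST mice it was 6 without TMM and 1 with only the groups compared. Without TMM, 5077 of all 17515 genes passed, in place of 907, so the count of members rose along with that of all genes. DESeq2 gave 1 for the BNST interaction (B2m), where it called 223 of all 17515 genes and edgeR called 0. For strain in susceptible mPFC mice it was 4 with a mean log2 CPM of at least 1, where fewer genes were tested and 2755 of 15740 passed. In the vHPC that filter gave 4 for resilient B6, 13 for susceptible B6, 16 for strain in controls and 7 for strain in susceptible mice. With library set as a covariate the vHPC counts were 0 for resilient B6, 0 for susceptible B6, 0 for susceptible against resilient, 0 for susceptible D2, 9 for strain in controls and 4 for strain in susceptible mice, and with sequencing set 4 for resilient B6. With only the groups compared it was 4 for susceptible against resilient and 3 for the interaction (Tap1, H2-T22 and H2-K1), and quantile normalization gave 3 for the interaction (H2-Eb1, H2-Q10 and H2-DMb1). H2-Q10 in the vHPC turned sign under quantile normalization, to −0.36 in resilient and −0.58 in susceptible B6 mice.

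Leaving out 1 mouse at a time, the counts were 9 to 13 (controls) and 8 to 11 (susceptible) for strain in the mPFC, 0 to 1 for susceptible against resilient B6 mice in the mPFC (H2-Q2 without resilient mouse 6, Canx without susceptible mouse 1), and 0 to 0 in the other mPFC comparisons. In the BNST they were 0 to 2 and 2 to 2 for strain, 0 to 1 for the interaction and 0 to 0 otherwise. BNST strain calls among controls fell to 0 without B6 control 1 or 3 or D2 control 4, and to 1 without B6 control 2 or 4 or D2 control 3. The BNST interaction of B2m passed without B6 control 4 (adjusted p = 0.0354), B6 susceptible mouse 3 (0.0404) or D2 control 5 (0.0349). In the vHPC they were 6 to 11 for resilient B6, 18 to 23 for susceptible B6, 6 to 15 for susceptible against resilient, 2 to 4 for susceptible D2, 24 to 28 and 10 to 14 for strain, and 0 to 0 for the interaction. Depth limits values under 1 CPM, and mPFC and vHPC depth was not analysed here.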
